A study of Mus musculus with 6 samples.

Results

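Semaphorins and their receptors, the plexins and neuropilins, were followed as 1 gene module in RNA from whole spinal cords of mouse embryos. The members were all gene symbols of semaphorin classes 3 to 7, plexins A to D and neuropilins with at least 10 counts in 3 or more libraries. All 31 such symbols in the files met that minimum (20 semaphorins, 9 plexins and 2 neuropilins), of 55433 gene symbols in all. The embryos were of strain C57BL/6J at E13.5, and all 6 carried the NFIA-ff genotype. Of these, 3 were labelled control and 3 carried Nestin-cre as well and were labelled NFIAcKO. Nestin-cre drives cre recombinase in neural progenitors, and cre was present only in the NFIAcKO embryos, so transgene and deletion cannot be told apart. The series asks what the transcription factor NFIA does in motor neuron development.

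Semaphorins steer growing axons, mostly by repulsion. Class 3 members are secreted and bind neuropilins, which pass the signal on through plexins of the A type. Semaphorins of classes 4, 5 and 6 span the membrane, and Sema7a is held by a lipid anchor. Plexins carry a cytoplasmic domain that switches off small GTPases of the Ras family and so changes adhesion and the cytoskeleton. In the embryonic cord, Sema3a with Nrp1 and Sema3f with Nrp2 are known from mouse studies to set when and where motor axons enter the limb.

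The libraries held 43393053 to 51465763 counts assigned to genes, and levels are given as CPM, the usual depth-normalised count, on TMM-scaled library sizes. Nfia itself was higher in the libraries labelled NFIAcKO, at 111 ± 7.02 CPM (SD, n = 3) against 66.1 ± 11.3 CPM in control (log2 fold change 0.75, SE 0.11, adjusted p = 0.0031). Nfia reads were counted from all of its exons, including any outside the deletion, so this value does not check the deletion and each direction below is that of the labels. Summed over 7 markers of spinal neurons, levels were 3917 to 4038 CPM in control and 3839 to 4281 CPM in NFIAcKO libraries. Of the 7, Pax2 and Lhx1 were called higher. Tubb3 and Stmn2, with control means of 2210 and 1363 CPM, made up most of the sum, which therefore shows little of the other markers. Markers of other tissues were present too. The 7 mesenchymal and meningeal markers summed to 1277 to 1646 CPM in control and 1480 to 2037 CPM in NFIAcKO, with none called. The 6 sensory ganglion markers summed to 211 to 221 CPM and 193 to 209.7 CPM, with none of the 5 tested called. The ganglion sums did not overlap between the groups, and nor did those of the erythroid and microglial lists. The 5 erythroid markers summed to 1032 to 1170.2 CPM in control and 1213 to 1431 CPM in NFIAcKO, with Hba-x called higher, and the 4 microglial markers to 51.4 to 59.8 CPM and 44.3 to 49.6 CPM, with P2ry12 called lower. Among 6 progenitor markers, whose sums overlapped, Nes was called higher and Fabp7 lower. With the length and GC trend described below removed, 0 progenitor, microglial, mesenchymal or ganglion markers were called. In that fit 3 neuronal markers (Pax2, Lhx1 and Mnx1) and 2 erythroid markers (Hba-x and Hbb-y) were called, all higher. The part of these markers in the results below was not tested. No marker was at 0 in all 6 libraries. In whole tissue, more cells of a type and more RNA per cell cannot be told apart. The labels do not say which embryos shared a litter, and p-values measure the spread between these samples, which may be in part technical. The libraries of control and NFIAcKO replicates 1 and 2 share a number in their file names, those of both replicates 3 share another, and the labels do not say what it stands for.

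Part of the module was higher in the NFIAcKO cords and none of it was called lower. Of 31 members tested by edgeR's quasi-likelihood test, 9 rose, 0 fell and 22 did not pass at an adjusted p under 0.05. The 9 were the neuropilin Nrp2, the plexins Plxna1, Plxna2, Plxna4 and Plxnc1, and the semaphorins Sema3a, Sema5a, Sema6a and Sema6d, by 1.20-fold to 1.47-fold. That is 29.0% of the members, where 7.86% of 17711 tested genes rose and 6.08% fell. The DESeq2 and limma-voom tests also called 0 members lower, and no member with a negative fold change had an unadjusted p under 0.05 in edgeR. All 3 NFIAcKO libraries lay above all 3 control libraries for 16 members (51.6%) and below for 1, against 17.3% and 16.1% of tested genes. The fold change was above 0 for 28 members, 90.3% of them, against 48.9% of tested genes. The median log2 fold change was 0.23 over the members and -0.01 over all tested genes. Across all tested genes, 56.4% of calls were rises, and 42.4% were under upper quartile scaling, which called 7 members higher and 0 lower and left 25 with a fold change above 0.

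The count of members called depended on single libraries. It was 4, 5 and 16 without control replicates 1, 2 and 3, and 4, 5 and 3 without NFIAcKO replicates 1, 2 and 3. Over all tested genes the rises in those fits numbered 282, 700, 2703, 312, 599 and 325, so the members' count moved with that of the whole table. Control replicate 3 had the highest control level for 18 members, control replicate 2 the lowest for 17, and NFIAcKO replicate 1 the highest NFIAcKO level for 17. Within the 4 libraries that share a number, the fold change was above 0 for 28 members (median 0.26). Between both replicates 3 it was above 0 for 19 (median 0.16), with 1 library a side and no test. The shares of all tested genes were not set beside these counts.

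**Figure D1:**
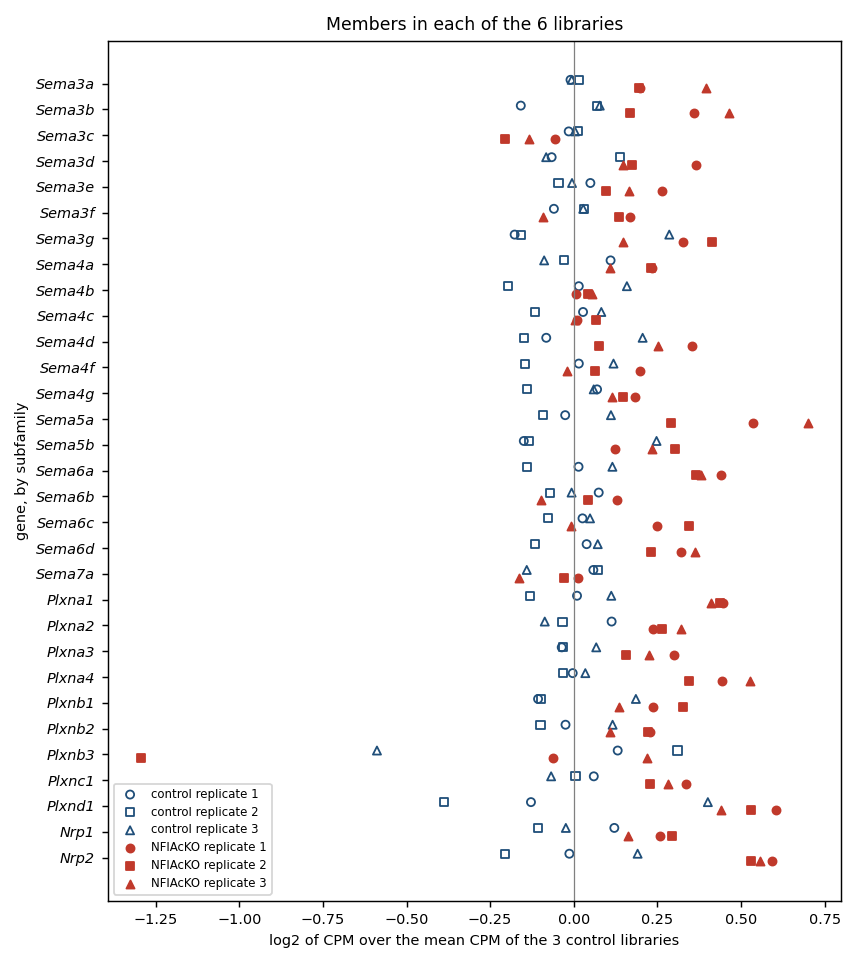
Level of each of the 31 members in each library, as the log2 of its CPM over the mean of the 3 control libraries (x axis), with genes by subfamily on the y axis. Open symbols are control libraries and filled symbols NFIAcKO libraries. Filled symbols lie to the right of all open symbols for 16 genes, and Plxnb3, with 11 to 38 counts a library, scatters most.

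Long transcripts were higher in the NFIAcKO libraries across the whole table, and the members are long. The members' exons summed to 3298 to 18686 bp with a median of 7720 bp, and all tested genes had one of 3976 bp. The 9 that rose had a median of 11842 bp and the other 22 one of 6786.5 bp. For each doubling of exonic length, log2 CPM relative to the libraries' mean changed by -0.06, -0.12 and -0.02 in control replicates 1 to 3. In NFIAcKO replicates 1 to 3 the change was 0.07, 0.04 and 0.09. A gene of each member's length and GC content had a log2 shift of 0.16 to 0.33 among the 9 that rose and of 0.01 to 0.27 among the other 22. With that trend removed from each library, 2 members rose, Nrp2 and Sema6a, and 0 fell. Those 2 are 6.45% of the members, near the 3.82% of tested genes that rose in the same fit (3.87% fell). The members' median log2 fold change was then 0.07, against 0.01 over all tested genes. Above 0 were 19 of the 31 members and 9085 of the 17711 tested genes. Both calls held in only 1 of the 6 trend-removed fits that leave out a library, the one without control replicate 3. A real difference that follows transcript length and a technical one cannot be told apart in these libraries.

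**Figure D2:**
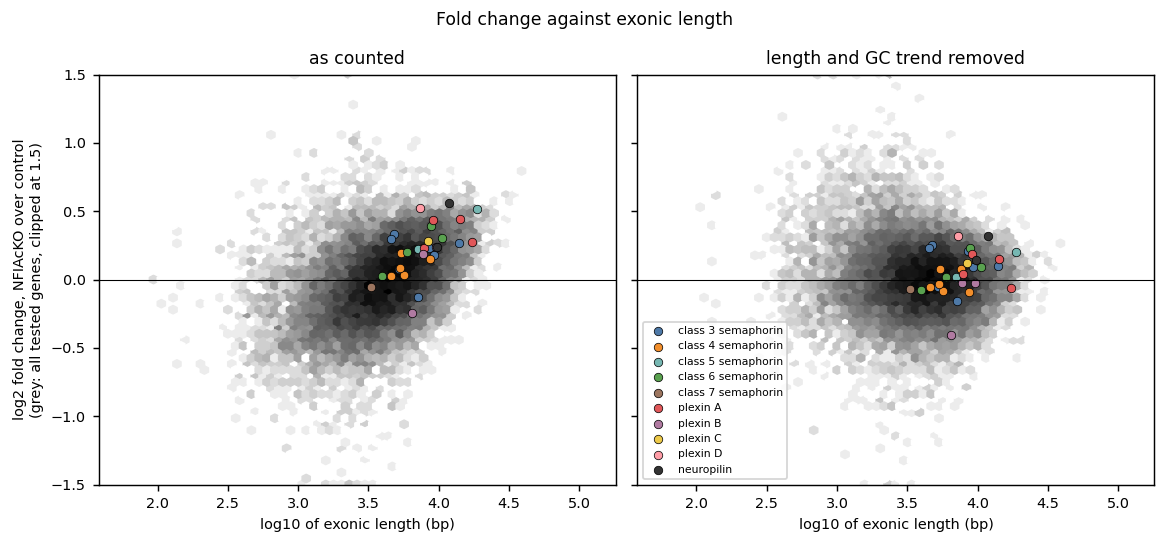
Log2 fold change of NFIAcKO over control (y axis) against the log10 of exonic length in bp (x axis), as counted on the left and with the length and GC trend removed on the right. Grey hexagons hold all tested genes and coloured points the 31 members by subfamily. On the left the members with long exons lie high within a rising cloud, and on the right the median of all 31 members is 0.07.

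Promoter sequences are shown because 9 members were called in the same direction and because NFIA binds a known motif. RefSeq promoters, from 250 bases before to 50 after a start in GRCm38.p6, were found for 26 of the 31 members, with 37 starts among them. Plxna1, Plxna4, Sema3b, Sema3f and Sema6a had no entry. The first 3 sequences belong to called members, and capitals mark CG dinucleotides: 37 in Nrp2 (chr1:62703067-62703366, plus strand), 23 in Sema5a (chr15:32244563-32244862, plus strand) and 30 in Plxnc1 (chr10:94944796-94945095, minus strand).
Nrp2: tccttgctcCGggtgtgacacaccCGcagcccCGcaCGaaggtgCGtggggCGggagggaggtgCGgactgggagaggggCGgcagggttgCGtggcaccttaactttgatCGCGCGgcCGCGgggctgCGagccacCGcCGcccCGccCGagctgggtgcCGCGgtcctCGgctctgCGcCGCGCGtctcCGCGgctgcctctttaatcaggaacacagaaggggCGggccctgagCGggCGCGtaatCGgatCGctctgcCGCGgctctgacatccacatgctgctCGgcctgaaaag
Sema5a: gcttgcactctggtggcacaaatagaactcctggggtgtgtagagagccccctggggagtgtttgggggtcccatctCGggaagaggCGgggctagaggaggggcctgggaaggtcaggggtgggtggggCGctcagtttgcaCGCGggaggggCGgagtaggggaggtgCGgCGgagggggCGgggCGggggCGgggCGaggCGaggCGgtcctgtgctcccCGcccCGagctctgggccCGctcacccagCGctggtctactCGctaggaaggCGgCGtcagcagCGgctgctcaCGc
Plxnc1: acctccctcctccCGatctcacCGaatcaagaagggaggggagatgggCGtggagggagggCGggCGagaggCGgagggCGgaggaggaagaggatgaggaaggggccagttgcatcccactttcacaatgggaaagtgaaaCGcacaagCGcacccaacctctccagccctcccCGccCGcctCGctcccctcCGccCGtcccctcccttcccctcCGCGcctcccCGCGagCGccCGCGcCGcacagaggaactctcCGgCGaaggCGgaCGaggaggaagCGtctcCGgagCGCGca
The median over the members' starts was 15 CG dinucleotides, against 7 over all 32851 RefSeq promoters. The members' starts ran from 2 CG, in 1 start of Sema4d and in that of Sema3a, which lies inside the longer GENCODE gene, to 42 in Sema3c. Of the members' starts, 43.2% had 20 or more, a level that 26.5% of all promoters reached. All promoters cover 27025 genes, more than the 17711 tested here, while every member was tested. Promoters of tested genes alone were not set beside the members, so these values mark no trait of the members. CG-rich starts were found in called and uncalled members alike, as the counts of Nrp2 and Sema3c show.

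The half-site of NFI factors, TTGGC or its reverse complement GCCAA, was searched on both strands. It was found in 10 of the 37 member promoters (27.0%) and in 46.7% of all promoters, which here too include genes not tested. Among the 6 called members with an entry, 1 of 7 starts held it, the second start of Sema6d. The full motif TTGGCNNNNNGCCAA was in 0 member promoters and in 12 of all promoters. Plxnd1 (chr6:115994956-115995255, minus strand) is shown for a match 35 bases before its start, in capitals.
Plxnd1: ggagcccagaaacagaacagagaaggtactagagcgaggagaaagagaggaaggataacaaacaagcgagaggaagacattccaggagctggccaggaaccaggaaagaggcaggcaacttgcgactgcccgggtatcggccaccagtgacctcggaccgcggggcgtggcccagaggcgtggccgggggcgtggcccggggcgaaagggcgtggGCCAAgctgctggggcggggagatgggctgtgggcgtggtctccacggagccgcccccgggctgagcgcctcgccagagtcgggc
A match is a description of these letters, and no match says nothing of binding elsewhere.

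Class 3 semaphorins, the secreted ligands, had 1 of 7 members called, where 7.86% of all tested genes rose, and 0 with the trend removed. Sema3a, the ligand that repels axons bearing Nrp1 and that motor neurons themselves also make, stood at 71.6, 72.9 and 71.8 CPM in control replicates 1 to 3. In NFIAcKO replicates 1 to 3 it stood at 82.7, 82.6 and 94.9 CPM, so the groups did not overlap. The rise was 1.20-fold (log2 fold change 0.27, SE 0.08, adjusted p = 0.04) and was 0.10 on the log2 scale with the trend removed (adjusted p = 0.31). Leaving out control replicate 1 or 2 ended this call (adjusted p = 0.163 or 0.0685), and so did leaving out NFIAcKO replicate 1, 2 or 3 (0.102, 0.0724 or 0.195). Upper quartile scaling also lost it (adjusted p = 0.0789). Sema3a (ENSMUSG00000028883.17) lies on the plus strand at chr5:13125414-13602565 of GRCm38, with 13868 bp of exons.

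Sema3c, which attracts some growth cones and repels others, was the 1 member with all NFIAcKO libraries below all control libraries. It stood at 113, 115 and 114 CPM in control and 109.8, 98.95 and 104 CPM in NFIAcKO replicates 1 to 3 (log2 fold change -0.13, SE 0.08, adjusted p = 0.27). Its value without the trend was -0.16 (adjusted p = 0.14). Sema3f, the ligand of Nrp2, stood at 38.2 ± 1.34 CPM in control and 40.3 ± 3.87 CPM in NFIAcKO (SD, n = 3; 0.08, SE 0.09, adjusted p = 0.63), with overlapping groups. Sema3e, which signals through Plxnd1 without a neuropilin, stood at 8.10 ± 0.269 and 9.15 ± 0.529 CPM (0.18, adjusted p = 0.35). Sema3b, a ligand of the floor plate, stood at 7.62 ± 0.687 and 9.62 ± 0.984 CPM (0.34, SE 0.13, adjusted p = 0.098). Beside it, the 3 floor plate markers summed to 344 to 458 CPM in control and 483 to 537 CPM in NFIAcKO, with Ntn1 called higher. With the trend removed Ntn1 did not pass (adjusted p = 0.06) and Shh, another of the 3, did (0.045). The part of the 3 markers in the Sema3b value was not tested. Sema3d and Sema3g had control means of 5.63 and 10.2 CPM and NFIAcKO means of 6.61 and 12.5 CPM (adjusted p = 0.29 and 0.16). Leaving out control replicate 3 moved Sema3g from 0.30 to 0.46 (adjusted p = 0.0082), and it was called there with the trend removed too. Of the 7 genes, Sema3d, Sema3a, Sema3e and Sema3c lie in that order within 5.35 Mb of chromosome 5, and Sema3b and Sema3f lie 72.3 kb apart on chromosome 9. The neighbours did not share a call: Sema3a passed and Sema3e, 422.7 kb away, did not. No test of the difference between the 2 was made.

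Among the membrane-bound semaphorins of class 4, which bind mainly plexins B, 0 of 6 members passed in edgeR at an adjusted p under 0.05, and also 0 in DESeq2 and limma-voom. At an unadjusted p under 0.05 in edgeR the count was also 0. Their log2 fold changes ran from 0.03 for Sema4c to 0.23 for Sema4d, and upper quartile scaling turned Sema4b and Sema4c to -0.0024 and -0.012. Sema4g was the most abundant of them in CPM at 111.5 ± 8.85 and 123.5 ± 2.96 CPM (SD, n = 3; 0.15, adjusted p = 0.24). It was also the 1 of the 6 with all NFIAcKO libraries above all control libraries. Without the trend 2 of the 6 were above 0. Sema4d passed only in the fit without control replicate 3 among those that leave out a library (adjusted p = 0.0167).

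Class 5 ligands carry thrombospondin repeats that bind proteoglycans. Sema5a, a ligand of Plxna1 and Plxna3 in the mouse, stood at 44.8, 42.7 and 49.2 CPM in control replicates 1 to 3. It stood at 66.0, 55.8 and 74.0 CPM in NFIAcKO replicates 1 to 3, where replicate 3 was highest and the groups were apart. The rise was 1.43-fold (log2 fold change 0.52, SE 0.10, adjusted p = 0.0077), and the call was lost without NFIAcKO replicate 3 (0.41, adjusted p = 0.0563). Sema5a has the longest exons of the members, 18686 bp, and a gene of its length and GC content had a shift of 0.31. With the trend removed the log2 fold change was 0.20 (SE 0.08, adjusted p = 0.12). Sema5a (ENSMUSG00000022231.10) lies on the plus strand at chr15:32244810-32696341 of GRCm38. Its relative Sema5b stood at 56.6 ± 9.17 and 66.0 ± 4.07 CPM (SD, n = 3; 0.22, adjusted p = 0.17), and control replicate 3, at 67.2 CPM, overlapped the NFIAcKO libraries. Without it the Sema5b value was 0.36 (adjusted p = 0.0014).

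Class 6 ligands bind plexins A and can also act as receptors themselves. Sema6a, which boundary cap cells use to keep motor neuron cell bodies inside the cord in the mouse, stood at 99.2, 89.1 and 106 CPM in control replicates 1 to 3. In NFIAcKO replicates 1 to 3 it stood at 133, 126.5 and 128 CPM, all above control. The rise was 1.32-fold (log2 fold change 0.40, SE 0.08, adjusted p = 0.0096) and 0.23 with the trend removed (SE 0.06, adjusted p = 0.04). As counted, the call was lost without control replicate 1 (adjusted p = 0.0572) and NFIAcKO replicates 1 and 3 (0.0661 and 0.0563). Sema6d, another ligand of Plxna1, had control libraries at 119.7, 107.5 and 122.5 CPM and NFIAcKO libraries at 146, 137 and 149.8 CPM, which did not overlap. It rose by 1.24-fold, 117 ± 7.97 to 144 ± 6.74 CPM (SD, n = 3; 0.31, SE 0.08, adjusted p = 0.023). Sema6d missed the threshold when control replicate 1 or 2 was left out (0.0938 or 0.0663), when NFIAcKO replicate 1, 2 or 3 was (0.113, 0.0503 or 0.115) and with the trend removed (0.09, adjusted p = 0.37). Sema6d (ENSMUSG00000027200.17) spans chr2:124089969-124667770 of GRCm38 on the plus strand. Sema6b and Sema6c, with shorter exons of 3968 and 5935 bp, had fold changes of 0.03 and 0.20 in log2 units (adjusted p = 0.86 and 0.16), with overlapping groups, and Sema6b turned to -0.011 under upper quartile scaling. The lipid-anchored Sema7a, which binds Plxnc1 and integrins, had a log2 fold change of -0.06 (adjusted p = 0.7), with means of 61.8 ± 4.98 CPM in control and 59.3 ± 3.80 CPM in NFIAcKO.

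**Figure D3:**
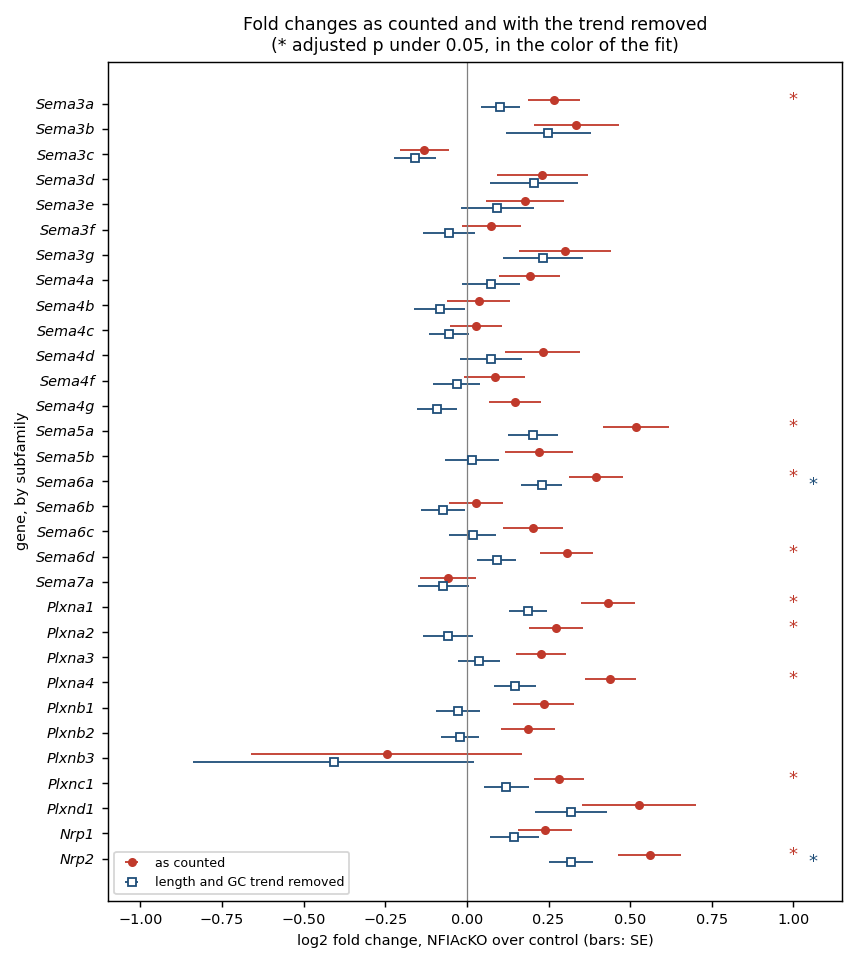
Log2 fold change of NFIAcKO over control for each member (x axis, bars are 1 SE), with genes by subfamily on the y axis. Red circles are values as counted and blue squares are values with the length and GC trend removed. Stars mark an adjusted p under 0.05 in the fit of that color, for 9 genes as counted and 2 with the trend removed.

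Plexins of the A type, the signalling partners of neuropilins, had 3 of 4 members called, and all 4 had their NFIAcKO libraries above every control library. Over all tested genes 7.86% rose and 17.3% had their NFIAcKO libraries above every control library. With the trend removed 0 of the 4 were called. The median exonic length of the 4 was 11578.5 bp, against 3976 bp over all tested genes. Plxna4, which transduces Sema3a and Sema6a signals in axons, had a narrow control range of 91.3, 89.5 and 93.7 CPM. Its NFIAcKO libraries stood at 124, 116 and 132 CPM (1.36-fold; log2 fold change 0.44, SE 0.08, adjusted p = 0.0057). Plxna1, a receptor for Sema3 ligands with a neuropilin and for Sema6d without one, stood at 182, 165 and 196 CPM in control and 247, 245.5 and 241 CPM in NFIAcKO replicates 1 to 3. That was a 1.35-fold rise (0.43, SE 0.08, adjusted p = 0.0072). Both calls held in each of the 6 fits with a library left out (adjusted p up to 0.0461 for Plxna4 and 0.0471 for Plxna1). Removing the trend ended both, at 0.15 (adjusted p = 0.17) for Plxna4 and 0.19 (adjusted p = 0.066) for Plxna1.

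Plxna2, a receptor of Sema6a, stood at 293, 265 and 255 CPM in control and 319, 325 and 338.5 CPM in NFIAcKO replicates 1 to 3 (1.21-fold; 0.27, SE 0.08, adjusted p = 0.039). Its exons sum to 17174 bp, a gene of its length and GC content had a shift of 0.33, and its value turned to -0.059 with the trend removed (adjusted p = 0.68). Without a library it passed only when control replicate 3 was left out. Leaving out control replicate 1 or 2 gave an adjusted p of 0.0717 or 0.0755, and leaving out NFIAcKO replicate 1, 2 or 3 gave 0.115, 0.0983 or 0.143. It also missed under upper quartile scaling (0.0618). Plxna3, an X-linked receptor that works with Nrp2, stood at 102 ± 4.21 and 119.6 ± 5.96 CPM (SD, n = 3; 0.23, SE 0.08, adjusted p = 0.062). Control replicate 2 and NFIAcKO replicate 2 were the libraries with high Xist, and with this as a covariate the same 9 members were called and Plxna3 was not. Plxna3 did pass in DESeq2 (adjusted p = 0.0331), with the file-name number as a block (0.0476) and without control replicate 3 (0.0182). It did not pass in limma-voom, with RLE or upper quartile scaling, without a filter on low counts or with the replicate block. With the trend removed its value was 0.04 (adjusted p = 0.76). Plxna1 (ENSMUSG00000030084.11) lies on the minus strand at chr6:89316314-89362620 and Plxna4 (ENSMUSG00000029765.12) on the minus strand at chr6:32144268-32588192. Plxna2 (ENSMUSG00000026640.12) lies on the plus strand at chr1:194618218-194816869, all in GRCm38. The antisense gene Gm26811 overlaps 970 bp (10.7%) of the exons of Plxna1, and Plxna4os3 overlaps 110 bp of those of Plxna4. The library kit was a stranded one, and the strand setting used for counting is not given in the sources used here. Reads in these stretches are uncertain.

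Plexins of the B type, receptors of class 4 ligands, had 0 of 3 members called by edgeR, by DESeq2 and by limma-voom. At an unadjusted p under 0.05 in edgeR, 2 passed, Plxnb1 and Plxnb2, and DESeq2 gave no adjusted p for Plxnb3. Plxnb2, which acts in dividing neural progenitors, stood at 220.0 ± 16.9 and 250.5 ± 11.5 CPM (SD, n = 3; 0.19, adjusted p = 0.14). Plxnb1 stood at 180.1 ± 21.4 and 212 ± 14.1 CPM (0.23, adjusted p = 0.105). In each of the 2, control replicate 3 lay among the NFIAcKO libraries, and both passed in the fit without it (adjusted p = 0.0205 and 0.00288). Their values without the trend were -0.02 and -0.03. Plxnb3, a receptor of Sema5a in human cells, was scarce, with 28, 38 and 18 counts in control and 27, 11 and 32 in NFIAcKO replicates 1 to 3, and no difference was detectable at that depth (adjusted p = 0.74).

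The other plexins have 1 member each. Plxnc1, the receptor of Sema7a, stood at 66.1, 63.6 and 60.5 CPM in control and 80.0, 74.2 and 77.0 CPM in NFIAcKO replicates 1 to 3 (1.22-fold; 0.28, SE 0.08, adjusted p = 0.027). Removing the trend ended the call (0.12, adjusted p = 0.3), and it was also lost in 5 of 6 fits that leave out a library. These left out control replicate 1 or 2 (adjusted p = 0.0819 or 0.0526) or NFIAcKO replicate 1, 2 or 3 (0.13, 0.0604 or 0.0932). Its ligand Sema7a did not pass. Plxnc1 (ENSMUSG00000074785.5) lies on the minus strand at chr10:94790866-94944835 of GRCm38, and Gm48718 overlaps 115 bp of its exons on the same strand.

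Plxnd1, the Sema3e receptor of vessels and of a subset of spinal neurons, had the second largest fold change of the members and did not pass. It stood at 44.6, 37.3 and 64.4 CPM in control and 74.2, 70.5 and 66.15 CPM in NFIAcKO replicates 1 to 3 (0.53, SE 0.18, adjusted p = 0.083). Control replicate 3 came close to the lowest NFIAcKO library, and without it the value was 0.78 (adjusted p = 4.05e-06). DESeq2 passed it (adjusted p = 0.0042), as did the fit without a filter on low counts (6.13e-06) and that with the file-name number as a block (0.0453). The replicate block also passed it. It did not pass with RLE or upper quartile scaling, in limma-voom, with the Xist covariate or with the trend removed (0.32, adjusted p = 0.096). Between both replicates 3 it was 0.04, and within the 4 libraries that share the other number it was 0.82. Endothelial markers moved beside it. The 6 summed to 231 to 250.3 CPM in control and 255 to 275 CPM in NFIAcKO, with Pecam1 and Cdh5 called higher and Cldn5 and Esam lower. With the trend removed only Cdh5 of the 6 was called. The part of the 6 markers in the Plxnd1 value was not tested.

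Neuropilins bind class 3 semaphorins and members of the VEGF family. Nrp2 had the largest fold change of all members. Its counts were 12550, 13178 and 15302 in control and 21055, 19261 and 20030 in NFIAcKO replicates 1 to 3, or 286, 250.3 and 329 CPM against 435, 416 and 424 CPM. Every NFIAcKO library lay above every control library, and control replicate 3 was the highest control. The rise was 1.47-fold (log2 fold change 0.56, SE 0.10, adjusted p = 0.0053). It held in each of the 6 fits with a library left out (0.46 to 0.66, adjusted p up to 0.0417) and in all 9 other alternatives planned. Between both replicates 3 it was 0.37, and within the 4 libraries that share the other number it was 0.67. With the trend removed it was 0.32 (SE 0.07, adjusted p = 0.022). Nrp2 (ENSMUSG00000025969.15) lies on the plus strand at chr1:62703285-62818695 of GRCm38, with 11842 bp of exons.

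Nrp1, the partner receptor of Sema3a, stood at 108.5, 92.65 and 98.1 CPM in control and 119, 122 and 112 CPM in NFIAcKO replicates 1 to 3 (0.24, SE 0.08, adjusted p = 0.065). Its groups did not overlap, and it passed in DESeq2 and with the file-name number as a block. With the trend removed its value was 0.15 (adjusted p = 0.25). The ratio of Nrp2 to Nrp1, both per kilobase of exon, was 2.18, 2.23 and 2.77 in control and 3.01, 2.81 and 3.14 in NFIAcKO replicates 1 to 3. The 2 groups of ratios were apart by a small margin between control replicate 3 and NFIAcKO replicate 2. A gene of the length and GC content of Nrp2 had a log2 shift of 0.25, and one like Nrp1 had 0.10. Division by exon length does not remove these shifts from the ratio. The ratio is a description and was not tested.

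Levels between genes were compared per kilobase of exon. In control cords the most abundant members were Plxnb2 at 28.5 ± 2.18 CPM per kilobase (SD, n = 3), Nrp2 at 24.4 ± 3.34 and Sema6c at 24.3 ± 1.12, and the range of Nrp2 overlapped that of each. Plxna1 followed at 20.01 ± 1.69. The scarcest were Plxnb3 at 0.0897 ± 0.0268, Sema3d at 0.655 ± 0.0571 and Sema3e at 0.872 ± 0.029. Of 30 neighbouring pairs in this order, 20 had overlapping control ranges, so only the broad order holds beyond the spread. The length used is that of all annotated exons of a gene, merged, whichever transcripts are expressed. The order therefore also rests on the annotation. Among class 3 ligands Sema3c was highest at 16.0 ± 0.152 and Sema3f and Sema3a stood at 7.35 ± 0.257 and 5.20 ± 0.0507 CPM per kilobase. In the NFIAcKO libraries Nrp2 stood at 35.9 ± 0.808 and Plxnb2 at 32.5 ± 1.49 CPM per kilobase, with ranges apart, so Nrp2 headed that order.

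**Figure D4:**
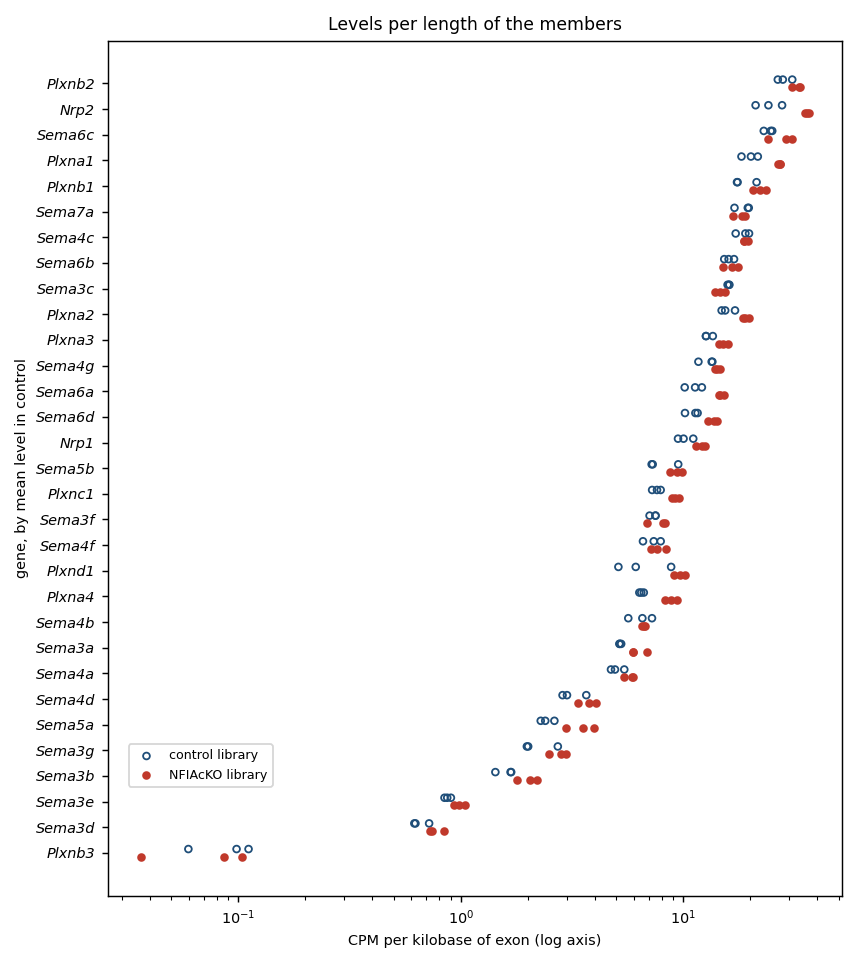
Level per length of the 31 members, as CPM per kilobase of exon on a log axis (x), ordered by the mean of the 3 control libraries (y). Open circles are control libraries and filled circles NFIAcKO libraries. Plxnb2, Nrp2 and Sema6c lead, and Plxnb3 lies far below the rest.

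A list of 62 other pathway genes, coreceptors and modulators at the membrane and cytoplasmic effectors, was set beside the members. Of its 61 tested genes 16 rose (26.2%, where 7.86% of all tested genes rose), 0 fell and 45 did not pass in edgeR. DESeq2 called 2 of them lower and limma-voom 0. In edgeR 3 with a negative fold change, Pgf, Cdk5 and Rap1b, had an unadjusted p under 0.05, and these were named after their values were seen. The median log2 fold change of the list was 0.12, against -0.01 over all tested genes. Among 22 coreceptors and modulators 7 rose, and among 39 tested effectors 9 rose. With the trend removed 6 of the 61 rose (9.84%, where 3.82% of all tested genes did) and 0 fell. The list's count of rises was 22 without control replicate 3 and ran from 4 to 9 without each of the other libraries.

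At the membrane, L1cam, an adhesion molecule that joins Nrp1 in the Sema3a receptor, stood at 266 ± 32.2 CPM in control and rose to 394 ± 9.89 CPM (SD, n = 3; 0.57, SE 0.09, adjusted p = 0.0046). Each of the 6 fits with a library left out called it, as did the fit with the trend removed (0.42, adjusted p = 0.0095). Nrcam, its relative and a partner of Nrp2, rose by 0.26 on the log2 scale (SE 0.08, adjusted p = 0.043). Nrcam missed the threshold when control replicate 1 or 2 (adjusted p = 0.152 or 0.0932) or NFIAcKO replicate 1, 2 or 3 (0.0953, 0.128 or 0.157) was left out. It also missed under upper quartile scaling (0.0672) and with the trend removed (0.02, adjusted p = 0.9). The VEGF receptors Kdr and Flt1, which vessels use, rose by 0.49 and 0.50 (SE 0.10 and 0.12, adjusted p = 0.0105 and 0.0152). Both were lost without control replicate 1 (adjusted p = 0.0518 and 0.0596), NFIAcKO replicate 1 (0.0529 and 0.065) and NFIAcKO replicate 2 (0.0518 and 0.0756). Removing the trend ended the call of Flt1 (0.23, adjusted p = 0.18) and not that of Kdr (0.31, adjusted p = 0.038). Of the 6 endothelial markers, Cdh5 and Pecam1 were higher by 0.55 and 0.27 (adjusted p = 0.0073 and 0.047) and Cldn5 and Esam were lower, at -0.30 and -0.34 (adjusted p = 0.019 and 0.046). With the trend removed Cdh5 kept its call (adjusted p = 0.0145) and Pecam1, Cldn5 and Esam lost theirs (0.11, 0.15 and 0.093). Tek and Emcn did not pass, at 0.18 and -0.07, and the part of these genes in the Kdr and Flt1 values was not tested. Vegfa, the ligand of Kdr and of Nrp1, stood at 44.5 ± 6.08 and 45.1 ± 5.46 CPM (adjusted p = 0.94).

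Inside the cell, the effectors named by the smallest p were Mical3, Enah, Arhgap35, Gsk3b and Arhgef12. Mical3 belongs to a family of oxidases that act on actin below plexins in the fly, and it rose by 0.51 (SE 0.09, adjusted p = 0.0053). Enah, an actin polymerase of growth cones, rose by 0.46 (SE 0.08, adjusted p = 0.0065). Mical3 and Enah have exons of 22950 and 21452 bp and lost their calls with the trend removed (0.07 and 0.15, adjusted p = 0.48 and 0.28). Arhgap35 rose by 0.45 (adjusted p = 0.0081) and kept its call there (0.27, adjusted p = 0.029). As counted, these 3 passed in each of the 6 fits with a library left out. Gsk3b, a kinase that acts in Sema3a signalling, rose by 0.41 (adjusted p = 0.0093; 0.25 and adjusted p = 0.04 with the trend removed). Leaving out control replicate 1 or NFIAcKO replicate 1 ended the call (adjusted p = 0.0514 or 0.0508). With the trend removed and a library left out, Arhgap35, Gsk3b and Kdr were each called in 1 of 6 fits, and L1cam in 3. Arhgef12, whose product binds plexins B, rose by 0.36 (adjusted p = 0.015). Removing the trend ended its call (0.09, adjusted p = 0.44), as did fits without control replicate 1 (0.0832) and without NFIAcKO replicates 1 and 3 (0.0621 and 0.0965).

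The collapsin response mediators are phosphoproteins that carry the Sema3a signal to microtubules. Of the 5 listed, 1 rose, 3 did not pass and Dpysl4, with 1 count in all libraries together, was not tested. Dpysl5, named after its values were seen, rose from a control mean of 686 ± 89.3 CPM to 872 ± 50.6 CPM (SD, n = 3; 0.35, SE 0.10, adjusted p = 0.0347). Its call ended with the trend removed (0.16, adjusted p = 0.16). It also ended when control replicate 1 or 2 (adjusted p = 0.103 or 0.0926) or NFIAcKO replicate 1, 2 or 3 (0.135, 0.119 or 0.0748) was left out. Dpysl3 stood at 2550.1 ± 171 and 2999 ± 247 CPM (SD, n = 3; 0.23, adjusted p = 0.12, and 0.0388 in DESeq2) and Crmp1 at 1520.3 ± 142 and 1719 ± 107 CPM (0.18, adjusted p = 0.235). Dpysl2 stood at 223 ± 9.51 and 254 ± 30.7 CPM (0.19, adjusted p = 0.196). In Dpysl2 and Crmp1 the groups overlapped, and in Dpysl3 they did not.

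**Figure D5:**
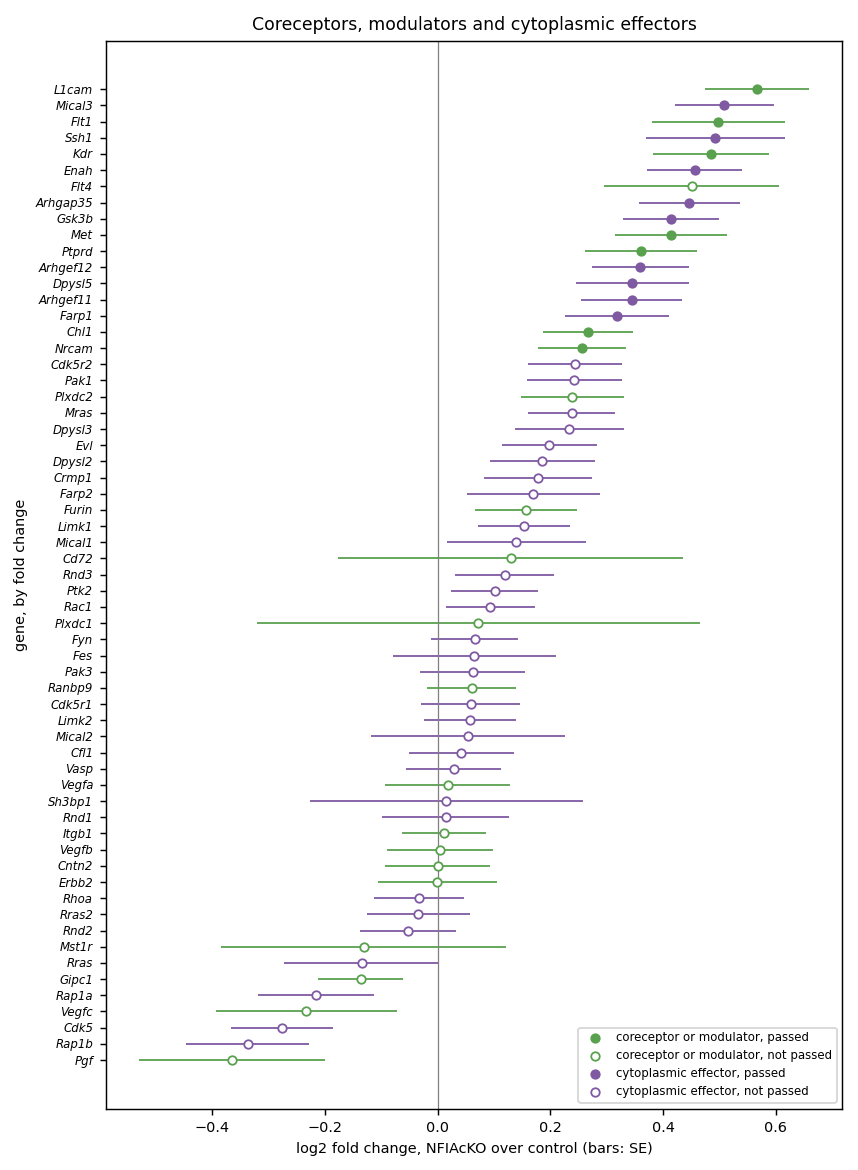
Log2 fold change of NFIAcKO over control (x axis, bars are 1 SE) for the 61 tested genes of the pathway list, ordered by fold change (y axis). Filled points passed at an adjusted p under 0.05, with coreceptors and modulators in green and effectors in purple. All 16 filled points lie to the right of 0, with L1cam highest.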

How the data were processed

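RNA was measured in 6 whole spinal cords of E13.5 mouse embryos, 3 control and 3 NFIAcKO. The deposited values are raw counts per gene, and the tools listed, per the submitters' processing notes, are HTSeq, DESeq2 and STAR (version 2.6.1a), with mm10 as build and no roles given. The 5 summary lines, 16.9% to 19.4% of a file's total, were left out. Counts were filtered and TMM-scaled and tested by edgeR 4.0.16 (quasi-likelihood, robust) in R 4.3.3, with Benjamini-Hochberg adjustment over 17711 genes. Each SE was obtained by dividing a log2 fold change by the root of its F value. Biological variation between replicates had a coefficient of 11.5%. Alternatives used DESeq2 1.42.0 and limma 3.58.1. Lengths come from GENCODE M21 (GRCm38), with a value for 98.8% of tested genes, and the length and GC trend was fitted with 5-df splines per library. The scripts were tested on simulated data with 200 changed genes. All members are named. Full values go to members called, neuropilins and plexins A. From the pathway list up to 8 called genes by smallest p are named, with L1cam, Nrcam, Dpysl2, Dpysl3, Crmp1 and Vegfa. The members and lists were chosen with earlier results of these data known.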

Additional observations from a re-analysis of the deposited data

How the results depend on the processing

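The count of members called higher, 9, was 2 with the length and GC trend removed, 2 with trend removed and replicate block together, and 16 within the 4 libraries that share a file-name number. It ran from 3 to 16 over the fits that leave out a library, and from 0 to 5 with the trend removed as well. Members called lower numbered 0 in every setting run. Pathway list genes called higher, 16, were 6, 4 and 26 in the same 3 settings, 4 to 22 without a library, and 0 to 13 with the trend removed as well. Pathway list genes called lower, 0, were 2 under upper quartile scaling, in DESeq2, without a filter on low counts and with the file-name number as a block. They were 1 with the Xist covariate, 1 with the replicate block, 1 with trend removed and replicate block, 3 within the 4 libraries, 0 to 3 without a library and 0 to 1 with the trend removed as well. Over all tested genes the 1392 rises became 676, 707 and 2888 in those 3 settings, 282 to 2703 without a library, and 1, 122, 1867, 2, 36 and 8 with the trend removed as well (without control replicates 1, 2 and 3, then NFIAcKO replicates 1, 2 and 3). The 1076 falls became 686 with the trend removed, 2356 within the 4 libraries, 139 to 2466 without a library, and 1, 86, 1863, 2, 21 and 7 with the trend removed as well, in that order. Plxna2 turned to -0.059 with the trend removed and -0.054 with the replicate block added to it. Of the single-gene values under alternatives, 646 kept direction and side of the threshold, 79 lost a call, 28 gained one and 29 changed sign, which apart from those of Plxna2 were of genes not called. With the trend removed, and with the replicate block added to it, these were Plxnb1 at -0.0273 and -0.0275, Plxnb2 at -0.0218 and -0.0219, Sema3f at -0.0546 and -0.0535, Sema4b at -0.084 and -0.0834, Sema4c at -0.0546 and -0.0549, Sema4f at -0.0314 and -0.0321, Sema4g at -0.0918 and -0.0907 and Sema6b at -0.0733 and -0.0725. Upper quartile scaling gave Sema4b -0.00237, Sema4c -0.0116, Sema6b -0.011 and Vegfa -0.024. Over the fits that leave out a library, Sema4b ran from -0.0617 to 0.119, Sema4c from -0.0368 (both lowest without control replicate 2) to 0.0662, Sema6b from -0.0225 (without NFIAcKO replicate 1; -0.0148 without control replicate 2) to 0.0759, Plxnb3 from -0.553 to 0.0849 (above 0 without NFIAcKO replicate 2) and Vegfa from -0.0855 (without control replicate 3; -0.074 without NFIAcKO replicate 2) to 0.107. The cause was not tested. Under the replicate block 8 members were called: Plxna2 (adjusted p = 0.0532) and Sema3a (0.0522) were not, and Plxnd1 was (0.0448). Nrcam of the pathway list was not called there (0.055). Control and NFIAcKO libraries of the same replicate number had correlated deviations, at 0.0875 to 0.12. Of the libraries, 6 of 6 correlated best with their own replicate number, a hint from the data and not the design. These are 3 pairs seen from both sides and not 6 separate matches. Both replicates 2 had high Xist and both replicates 3 share a file-name number, and the part of these in the correlations was not tested. The fits with the trend and block together, within the 4 libraries, and with the trend removed and a library left out were chosen after seeing the data. With 3 libraries a group, small changes in scarce members such as Plxnb3 were not detectable.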
